A study of Mus musculus with 9 samples.

Results

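The genes described here are those of the molecular chaperones and folding enzymes on a spotted mouse cDNA array, read in myoblasts that were reversibly arrested in G0, in proliferating myoblasts, in myotubes and in arrested fibroblasts. They were chosen by symbol, older synonyms counted: the subunits of the chaperonin CCT (Tcp1 and Cct followed by a digit), the Hsp, Dnaj, Fkbp, Pfdn, Bag, Ppi and Pdia families, and Stip1, Calr, Canx, Ahsa1, Cdc37 and Ptges3. The rule took 151 clones of 83 genes, out of 15294 clones and 7612 genes with a symbol. By role, 11 genes were of the chaperonin and prefoldin, 18 of the cytosolic heat shock proteins and their co-chaperones, 6 mitochondrial, 18 of the endoplasmic reticulum (ER), 15 other J-domain proteins and 13 other immunophilins, and 2 (Hspbap1 and Lrr1) shared only the letters of a symbol. A measured clone was found for 82 of the 83 genes, and each gene is given by its brightest clone, the one brightest on average across the arrays.

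Chaperones bind newly made or unfolded proteins and keep them from aggregating until they fold. The chaperonin CCT is a barrel that encloses actin and tubulin, which prefoldin hands to it. HSP70 proteins work with J-domain partners, and HSP90 takes over clients such as kinases with the help of co-chaperones. HSP60 does the chaperonin's work in mitochondria. In the ER, BiP, GRP94, calreticulin, calnexin and the protein disulfide isomerases fold secreted and membrane proteins. Heat shock factor drives many of the cytosolic genes, and the unfolded protein response many of the ER genes. Muscle cells make much actin and myosin, whose folding needs CCT and HSP90.

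Each of the 9 arrays carried the RNA of a pair of cell states, labelled with Cy3 and Cy5. G0 MB were set against MB on 3 arrays, against MT on 2 and against G0 FB on 2, and MT were set against MB on 2. All myoblast states came from 1 sub-clone of C2C12, a mouse myoblast line: G0 MB were held for 48 h in semi-solid medium, MT were differentiated for 3 days and MB grew attached. G0 FB were fibroblasts arrested in the same kind of suspension, C3H10T1/2 in the methods but NIH 3T3 in the labels. A treatment field on all arrays also tells of cells replated after arrest, and 1 array names NIH 3T3 in the source of its G0 MB, so the states were taken from the titles. Suspension arrest stands for the quiescence of satellite cells only as far as a cell line can, so values here are those of the line. The methods tell of a biological replicate and of a reversal of the dyes among the arrays of a pair, without saying which arrays these are. Nothing in the labels says which arrays are separate cultures, so the p-values cover the spread between these arrays, which may be in part technical. Each array compares the RNA of whole cultures, in which fewer cells expressing a gene and less RNA per cell cannot be told apart.

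All values are log2 ratios of the first named state over the second, and a value below 0 means that the first state had the lower level. A clone was called where limma gave an adjusted p under 0.04 and the fitted ratio was past 1.6-fold (log2 0.67). For G0 MB over MB the labelled dyes, the titles and the authors' value table give the same direction, with r between 0.981 and 0.988 for the table against the labelled ratios of the 3 arrays. On all arrays that set G0 MB against MT or G0 FB, and on replicate 1 of MT over MB, the labelled dyes and the order of the states in the titles point to opposite signs, and the authors' value table follows the titles. The arrays of MT over MB correlated with each other at r = -0.486 over all clones when read by their labels, so they cannot both be right. The labels name MT as the Cy5 channel on both of them, with no dye reversal between them. Values are therefore given by the labelled dyes first and in title order after that, and for these 3 comparisons nothing is called higher or lower without naming the reading. The share of clone spots with a channel above the limit of detection ran between 36.4% and 61.1% over the arrays.

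Markers were read in the same way. Of 16 proliferation markers, 10 were tested in G0 MB over MB, 9 of them lay below 0 and their median was -2.18. All of these but Rrm2 had the weaker channel under its limit on some array, so their sizes are rough. Of 9 fibroblast markers, 4 were tested there, all with a fitted value above 0, among them Dcn at 2.72 and Col3a1 at 1.70. The weaker channel of Dcn was under its limit on all 3 arrays, and with it at the limit Dcn had 1.63, 2.77 and 0.96. Col1a1, with a fit of 0.32, had -0.87 on replicate 3. The part of either list in the chaperone values was not tested. Of 17 muscle differentiation markers only Mylpf and Tpm2 could be tested in the myoblast and myotube comparisons, so the check of the muscle states rests on those. Tpm2, a tropomyosin of the sarcomere, had -3.42 and 2.00 in MT over MB by the labels, and 3.42 and 2.00 in title order. Mylpf, a myosin light chain, had -4.68 and 12.70 by the labels and 4.68 and 12.70 in title order. On the array with 12.70 the dimmer channel of Mylpf was under its limit, and with that channel at the limit the value was 5.23. Both genes were thus above 0 on both MT over MB arrays in title order only. In G0 MB over MT, Mylpf had 4.20 and 3.02 and Tpm2 had 2.23 and 1.78 by the labels, which puts both higher in G0 MB than in MT. In title order Mylpf had -4.20 and -3.02 and Tpm2 had -2.23 and -1.78, which puts both lower in G0 MB than in MT. Of these readings, only title order put both genes higher in MT on every array that held MT. Tpm2 had -2.60 and -2.68 in G0 MB over G0 FB by the labels, and 2.60 and 2.68 in title order. In G0 MB over G0 FB, 4 of 9 fibroblast markers were tested, with a median of -0.79 by the labels and 0.79 in title order. They lay on both sides of 0: by the labels Col1a1 had 3.66 and 1.78, while Col3a1 had -0.89 and -1.23, Dcn -2.39 and -0.59 and Col1a2 -0.19 and -0.84. In title order all 4 have the opposite sign, so neither reading puts all of them lower in G0 MB than in G0 FB.

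Promoter sequence was read to show what 2 classes of chaperone genes carry ahead of their starts. RefSeq windows on GRCm38.p6, 250 bases before to 50 bases after a start, were found for 67 of the 83 genes. Hsp90ab1 and Hsp90aa1 were among the 16 without a window and were not searched. The 3-unit heat shock element, to which heat shock factor binds, was searched as GAANNTTCNNGAA and TTCNNGAANNTTC. It was present in the windows of Hspd1, Hsph1 and Dnajb6, which is 4.48% of the chaperone genes, against 0.662% of all genes with a window. The ER stress element, an element of the unfolded protein response, was searched as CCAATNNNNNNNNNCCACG on both strands, and starts with a CCAAT box. It was found for Calr, Canx, Dnajc3, Hsp90b1, Hspa5 and Pdia6, all of the ER group and 8.96% of the chaperone genes, against 0.137% of all genes. The 250 bases before the start are printed for Hspa5, Hsp90b1 and Calr, the ER genes whose ratios are set beside the cytosolic ones further on, and for Hspd1. Capitals mark the matched element. Hspa5 lies at chr2:34771840-34772089 (plus strand), Hsp90b1 at chr10:86705445-86705694 (minus strand), Calr at chr8:84846932-84847181 (minus strand) and Hspd1 at chr1:55087933-55088182 (minus strand).
Hspa5: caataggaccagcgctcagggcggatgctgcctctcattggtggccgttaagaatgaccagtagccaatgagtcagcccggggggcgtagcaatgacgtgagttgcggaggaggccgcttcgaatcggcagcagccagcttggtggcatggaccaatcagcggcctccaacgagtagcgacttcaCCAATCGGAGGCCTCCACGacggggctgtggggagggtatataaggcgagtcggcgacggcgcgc
Hsp90b1: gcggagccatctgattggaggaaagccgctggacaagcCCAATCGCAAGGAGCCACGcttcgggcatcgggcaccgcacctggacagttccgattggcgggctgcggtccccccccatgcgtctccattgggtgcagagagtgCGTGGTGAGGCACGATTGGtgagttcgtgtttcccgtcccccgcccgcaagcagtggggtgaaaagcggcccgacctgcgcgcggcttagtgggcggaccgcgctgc
Calr: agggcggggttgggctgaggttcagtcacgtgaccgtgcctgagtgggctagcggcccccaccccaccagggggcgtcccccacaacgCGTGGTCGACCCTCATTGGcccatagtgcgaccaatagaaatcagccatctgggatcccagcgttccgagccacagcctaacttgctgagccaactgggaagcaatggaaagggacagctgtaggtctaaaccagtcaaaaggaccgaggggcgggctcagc
Hspd1: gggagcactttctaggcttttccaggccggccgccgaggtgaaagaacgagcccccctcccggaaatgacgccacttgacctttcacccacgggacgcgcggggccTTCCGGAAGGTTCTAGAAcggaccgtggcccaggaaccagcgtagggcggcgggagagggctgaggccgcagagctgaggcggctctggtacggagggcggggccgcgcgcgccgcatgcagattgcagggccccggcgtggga
Hspa5 had its element at position -65 from the start, and Hsp90b1 had 2, at -212 on the printed strand and at -107 on the other. In Hspd1 the forms of the heat shock element overlapped, with first bases at -144 and -139. That of Hsph1 lay after its starts and that of Calr at -162 on the other strand. A match is a run of letters and not a binding site. Among the tested genes with an ER stress element the fitted log2 ratios of G0 MB over MB were -0.06 for Calr, -0.28 for Canx, 0.43 for Hsp90b1, -0.04 for Hspa5 and -0.70 for Pdia6. Among those with the heat shock element they were -1.89 for Hsph1, -0.98 for Hspd1 and 0.24 for Dnajb6.

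The comparison of G0 MB with MB asks which transcripts differ when myoblasts leave the cycle without differentiating. On replicates 1 and 2 the median of the chaperone genes lay below that of other genes. Among the lowest there were Cct3, Cct7, Cct8, Cct4, Hsp90ab1 and its co-chaperones Ahsa1 and Cdc37. The co-chaperone Fkbp4 had 0.89 and 0.53 on its brightest clone. Nearer 0 were Hspa5, Calr, Pdia3 and the brightest clone of Hsp90aa1. The ER genes Canx and Pdia4 had -0.85 and -0.40, and -2.70 and -1.50. On replicate 3 the median of the chaperone genes did not lie lower. The medians were -0.65, -0.58 and 0.12 on the 3 arrays, against -0.35, -0.22 and -0.06 for other genes. The fitted values that follow are means over all 3, and without replicate 3 the median of the fitted values was -0.80. Of the 56 genes tested, 43 had a fitted log2 ratio below 0, 76.8%, against 57.4% of all other genes, and their median was -0.39 against -0.15. At 1.6-fold without a test, 20 genes (35.7%) were lower and 4 (7.14%) were higher in G0 MB, beside 26.6% and 17.4% of all genes. No chaperone gene was called, where 0.476% of all genes were (18 of 3780). At an unadjusted p under 0.05, 12 of the 56 (21.4%) were lower, beside 12.5% of all genes, and 2 (3.57%) were higher, beside 8.86%.

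The call depended on the spread that the other comparisons lend to the fit. When the other arrays were read in title order, the ratios of G0 MB over MB stayed as they were but the prior variance of the fit was 0.455 in place of 0.513, and 2.88% of all genes were called. Cct3 (adjusted p = 0.0277) and Hsp90ab1 (adjusted p = 0.0358) were then among them, both lower in G0 MB. The same 2 chaperone genes, of 109 genes called and with the same prior variance, came when all G0 arrays kept their labelled dyes and the other array of MT over MB was turned instead, a setting added after seeing the data. In both settings the 2 arrays of MT over MB were turned to each other. In the fit in title order, both calls remained when either array of G0 MB over MT was left out, and both were lost without replicate 1 or 2 of G0 MB over MB, without either array of MT over MB or of G0 MB over G0 FB, and with the 3 arrays of this comparison fitted alone.

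**Figure D1:**
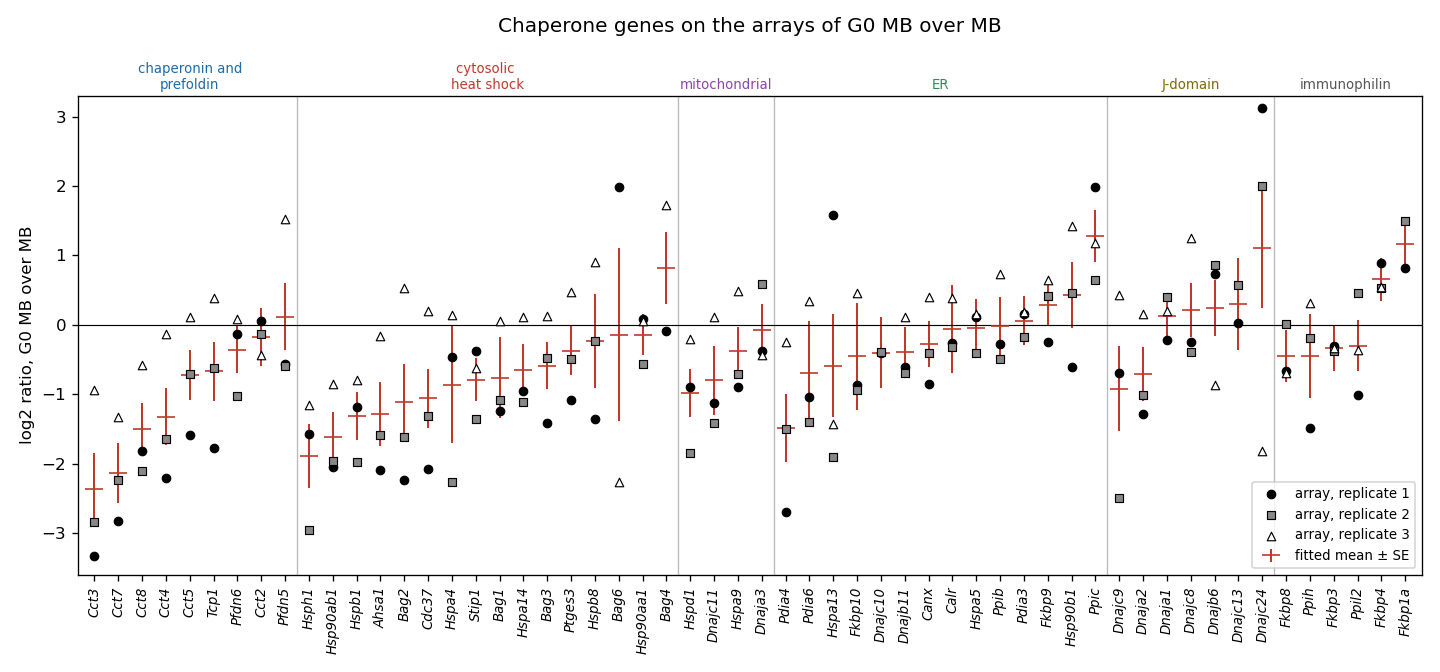
Log2 ratio of G0 MB over MB for the 56 chaperone genes tested, by role; symbols are the 3 arrays and the red bar is the fitted mean with its SE. Cct3 at -2.37 and Cct7 at -2.13, both at the left, lie lowest, while Cct2 of the same ring is at -0.17. Of the 51 genes measured on 3 arrays, 24 are below 0 on replicates 1 and 2 and above 0 on replicate 3 (open triangles).

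All 7 CCT subunits tested lay below 0, beside 57.7% of all genes, with a median of -1.32. Cct3, the gamma subunit, had -3.33, -2.84 and -0.94 on the 3 arrays, a fitted -2.37 ± 0.53 (SE) with an adjusted p of 0.078 in limma. Cct7, the eta subunit, had -2.82, -2.24 and -1.32, a fitted -2.13 ± 0.43 with an adjusted p of 0.0612. Both were past 1.6-fold on every array, in the direction of less RNA in G0 MB. Cct8, the theta subunit, had -1.81, -2.11 and -0.58, with a fit of -1.5 ± 0.38 (adjusted p = 0.0969). Cct4, the delta subunit, had -2.20, -1.64 and -0.13, and a fit of -1.32 ± 0.41. Cct5, epsilon, had -1.58, -0.71 and 0.12, and Tcp1, alpha, had -1.77, -0.62 and 0.39. These 4 were lower in G0 MB on the first arrays and nearer 0, or on the other side of it, on replicate 3. The brightest clone of Cct2, the beta subunit, stood apart from the ring it belongs to, at 0.06, -0.13 and -0.44. Another clone of Cct2 had a fit of -1.61. Cct3 lay below Cct2 by 3.38, 2.71 and 0.50 on the log2 scale on the arrays, a difference that was not tested. On replicate 3, the weaker channel of Cct3, Cct4 and Cct8 was under its limit, so that array gives only a rough size.

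Prefoldin, which delivers actin and tubulin to CCT, did not share this order. Pfdn5 had -0.56, -0.59 and 1.53, on both sides of 0. Pfdn6 had -0.13, -1.03 and 0.09. Pfdn1 and Pfdn4 had values on 2 arrays and were not tested.

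The HSP90 system was split when read by the brightest clones. Other clones of Hsp90aa1 had fits of -1.81 and 0.26, and another of Stip1 had -2.08. Hsp90ab1, the constitutive cytosolic HSP90, had -2.05, -1.96 and -0.85, a fitted -1.62 ± 0.36 (adjusted p = 0.0752), that is 3.08-fold lower in G0 MB. Hsp90aa1, its stress-inducible partner, had 0.08, -0.56 and 0.05, and a fit of -0.14 ± 0.29. Hsp90ab1 lay below Hsp90aa1 on every array, by 2.13, 1.40 and 0.90 on the log2 scale (mean difference -1.48, SD 0.62), which was not tested. Ahsa1, the activator of the HSP90 ATPase, had -2.09, -1.59 and -0.16 (fit -1.28 ± 0.46). Cdc37, which brings kinases to HSP90, had -2.08, -1.31 and 0.20 (fit -1.06 ± 0.43). Stip1, the adaptor between HSP70 and HSP90, had -0.38, -1.35 and -0.62 (fit -0.79 ± 0.31). Each of these 3 passed an unadjusted p of 0.05 and none the adjusted limit. Ptges3, the p23 co-chaperone, had -1.08, -0.49 and 0.47, on both sides of 0.

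In the HSP70 system, Hsph1, the HSP110 exchange factor, was lowest at -1.57, -2.95 and -1.15, with a fit of -1.89 ± 0.46 (adjusted p = 0.124). Hspa4, a relative of it, had -0.46, -2.27 and 0.14, and its arrays spread over a wider range than its distance from 0. Bag1 and Bag3, nucleotide exchange factors of HSP70, had -1.24, -1.08 and 0.05, and -1.41, -0.48 and 0.13. Among small heat shock proteins, Hspb1 (HSP27, which binds actin filaments) had -1.18, -1.97 and -0.79, a fit of -1.31 ± 0.35 (adjusted p = 0.116). Hspb1 was past 1.6-fold lower on every array. Hspb8, a partner of Bag3, had -1.36, -0.23 and 0.90. In all, 15 of the 16 tested genes of the cytosolic heat shock group lay below 0 (93.8%, beside 57.7% of all genes), with a median of -0.77. Among the 16, 9 were past 1.6-fold lower, beside 26.6% of all genes, and 1 past it higher, beside 17.4%. An unadjusted p under 0.05 was reached by 6, all lower, beside 12.5% of all genes.

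In the mitochondria, Hspd1, the HSP60 chaperonin, had -0.89, -1.85 and -0.21 (fit -0.98 ± 0.35, adjusted p = 0.168). Hspa9, the matrix HSP70 also called mortalin, had -0.89, -0.71 and 0.49. Dnajc11, a J-domain protein of the mitochondrial membranes, had -1.12, -1.41 and 0.12. All 4 mitochondrial genes tested lay below 0, beside 57.7% of all genes.

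In the ER group 14 genes were tested, with a median of -0.17, close to the -0.15 of all genes. Below 0 were 10 of them (71.4%), beside 57.7% of all genes. Medians of the group on the 3 arrays were -0.34, -0.40 and 0.38, beside -0.33, -0.18 and 0.05 for all genes. Hspa5 (BiP) had 0.12, -0.40 and 0.16. Calr had -0.26, -0.32 and 0.38, and Canx had -0.85, -0.40 and 0.40. Pdia3 had 0.16, -0.17 and 0.18, and Ppib, the cyclophilin of the collagen-folding pathway, had -0.28, -0.49 and 0.73. For all of these the arrays lay on both sides of 0. Hsp90b1 (GRP94), the ER paralogue of HSP90, had -0.61, 0.46 and 1.43, and lay above Hsp90ab1 on every array. The ER group also held exceptions at each end. Pdia4 had -2.70, -1.5 and -0.24 (fit -1.48 ± 0.49, adjusted p = 0.146). Ppic, cyclophilin C of the secretory pathway, had 1.99, 0.65 and 1.18, a fit of 1.28 ± 0.38 (adjusted p = 0.128), and was above 0 on every array. Fkbp10, a collagen prolyl isomerase, had -0.87, -0.94 and 0.46, and Pdia6 had -1.04, -1.40 and 0.34.

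The other J-domain proteins had a median of 0.21 over 7 genes, with 2 below 0 (28.6%, beside 57.7% of all genes). Dnaja1, a main partner of cytosolic HSP70, had -0.22, 0.40 and 0.20. Dnaja2 had -1.29, -1.01 and 0.16, and Dnajc9, a histone chaperone, had -0.70, -2.49 and 0.43. Of the other immunophilins, 6 were tested, with a median of -0.32. Fkbp1a (FKBP12) had 0.82 and 1.5 on the 2 arrays that measured it, a fit of 1.16 ± 0.40 (adjusted p = 0.166), and Fkbp4, an HSP90 co-chaperone (FKBP52), had 0.89, 0.53 and 0.54.

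**Figure D2:**
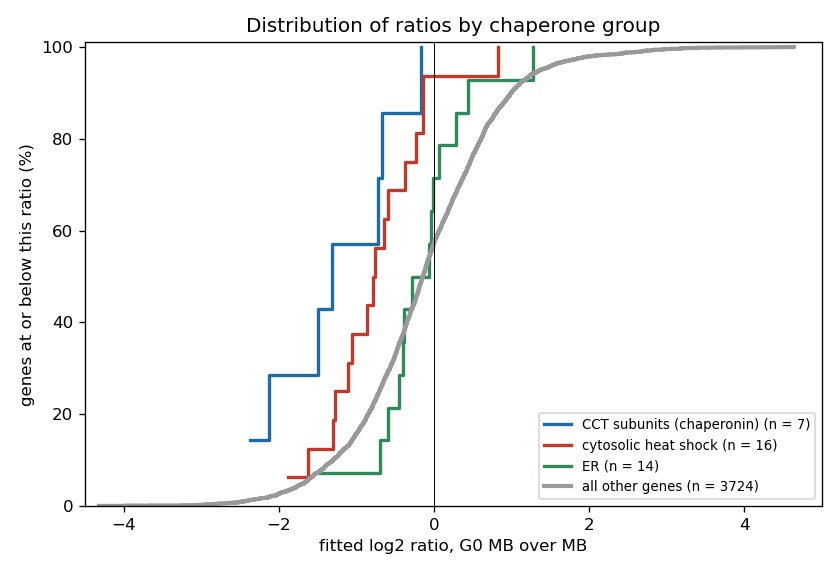
Cumulative share of genes at or below each fitted log2 ratio of G0 MB over MB, for the 7 CCT subunits, 16 cytosolic heat shock genes, 14 ER genes and all 3724 other genes tested. The CCT and cytosolic curves lie mostly left of the grey curve, with medians of -1.32 and -0.77 against -0.15, and the ER curve, at -0.17, crosses it.

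Replicate 3 of this comparison stood apart from the others. Replicates 1 and 2 correlated at r = 0.68 over all clones, and replicate 3 with them at 0.202 and 0.204. Replicates 1 and 2 were on the layout of 15294 clones and replicate 3 on that of 15247, as were all arrays of the other comparisons, so that layout and replicate cannot be told apart. The medians of the chaperone genes given above moved with it, and so did those of the proliferation markers, at -3.10, -2.75 and -0.83, and their part in the result was not tested. Of the 51 chaperone genes measured on 3 arrays, 36 were below 0 on replicates 1 and 2, and 24 of these were above 0 on replicate 3. Those below 0 on all 3 arrays numbered 12 (23.5%), beside 24.0% of all genes. At 1.6-fold lower on every array there were 5 (9.80%), namely Cct3, Cct7, Hsp90ab1, Hspb1 and Hsph1, beside 6.68% of all genes.

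Without replicate 3, 8.14% of all genes were called and 9 of 51 chaperone genes (17.6%). Lower in G0 MB were Cct3 (-3.08, adjusted p = 0.0209), Cct7 (-2.53), Pdia4 (-2.10), Hsp90ab1 (-2.01), Cct8 (-1.96), Bag2 (-1.93), Cct4 (-1.92) and Cdc37 (-1.69). Dnajc24 was higher, at 2.56, and was named with Bag2 only because both were called here. With both channels required to be above the limit, 5.83% of all genes were called and 6 of 45 chaperone genes (13.3%), all lower: Cct3, Cct7, Cct8, Cct4, Hsp90ab1 and Hspb1. That rule takes the replicate 3 value from Cct3, Cct4, Cct8 and Hspb1, whose weaker channel was dim there. Without replicate 1 or without replicate 2 no chaperone gene was called, where 0 of all genes were.

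The 27 genes not tested had values on 2 arrays (14 genes), on 1 (11) or on none (2). Among the 56 tested, 22 had the weaker channel under its limit on at least 1 array. A gene can pass the detection limit through 1 state alone, and for it a ratio away from 0 had to follow, so the counts above hold for the genes tested and not for all 83.

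Several genes had more than 1 clone, which share the RNA of an array and are no replicates of the comparison. The 8 clones of Hsp90ab1 had fitted log2 ratios between -1.62 and -0.86, the 4 of Cct3 between -2.71 and -2.37, and the 3 tested of Cct7 between -2.56 and -1.99. For these genes all clones gave the same direction. For others the brightest clone was an exception. Fkbp4 had 0.66 on its brightest clone and -2.30 and -1.90 on the others, and Fkbp1a had 1.16 against -1.87. Hsp90aa1 had -0.14 against -1.81 and 0.26. Tcp1 had -0.67 against -2.01, Cct5 had -0.72 against -1.97 and -1.87, Cct2 had -0.17 against -1.61, and Stip1 had -0.79 against -2.08. So the gap between Cct2 and the other CCT subunits, and between Hsp90aa1 and Hsp90ab1, rests on which clone is read. Over the 29 genes with 2 or more tested clones, 9 had clones on both sides of 0, and the brightest clone was closer to 0 than the mean of the others in 20 (69.0%), beside 55.4% of the 846 genes of the series with several tested clones. What the brightest and the dimmer clones of a gene hybridize to was not tested.

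**Figure D3:**
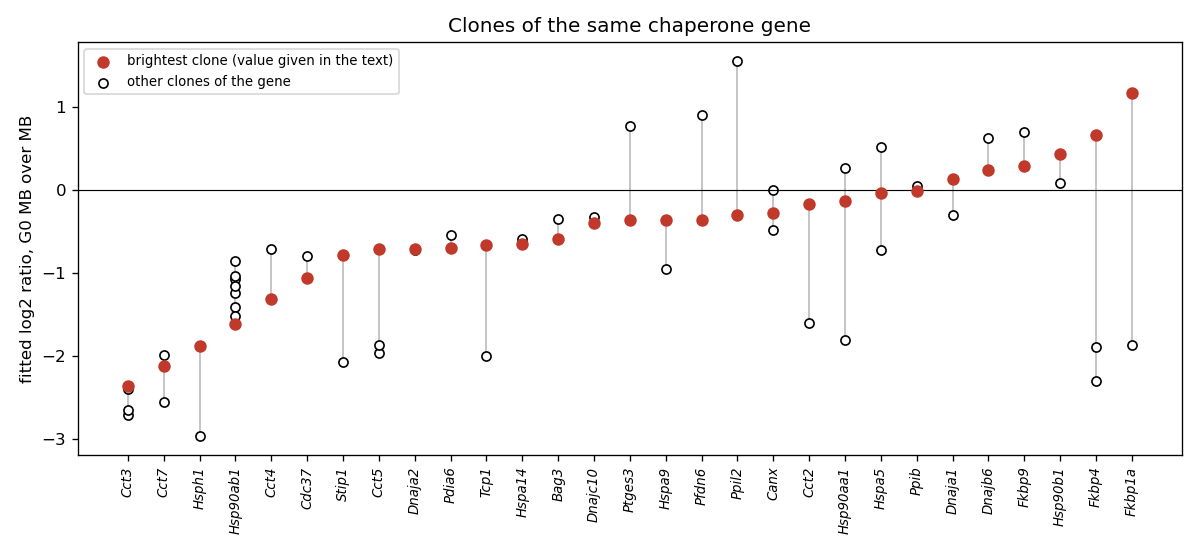
Fitted log2 ratio of G0 MB over MB for each tested clone of the 29 chaperone genes with 2 or more; red points are the brightest clone of a gene and open points its other clones. Hsp90ab1, Cct3 and Cct7 have tight sets below 0, while Fkbp4 and Fkbp1a have clones on both sides of 0.

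Genes that work beside the chaperones but were outside the rule were read beside them. Of 31 other cytosolic co-chaperones, 15 were tested and none was called. Ttc1 (-1.24) and Nudc (-1.21) had an unadjusted p under 0.05 and fitted values lower in G0 MB. The weaker channel was under its limit on replicates 1 and 3 for Ttc1 and on replicate 3 for Nudc. With that channel at its limit, Ttc1 had 0.07, -1.14 and 0.66 and Nudc had -1.47, -2.03 and 0.46. Of 12 genes of mitochondrial quality control, 6 were tested, with a median of -1.04, and all 6 lay below 0, beside 57.7% of all genes. At an unadjusted p under 0.05, 4 of them were lower, beside 12.5% of all genes. The 4 were Phb (-2.09), a prohibitin, Trap1 (-1.42), the mitochondrial HSP90, Clpp (-0.91) and Spg7 (-0.87), both proteases. Trap1 had values on 2 arrays, with the weaker channel under its limit on replicate 1. Phb and Spg7 had that channel under its limit on replicates 1 and 3. With it at the limit, Phb had -2.52, -2.22 and -0.32, and Spg7 had -0.44, -0.58 and 0.59. Of 41 genes of ER folding and the unfolded protein response, 21 were tested with a median of -0.36. The only one at an unadjusted p under 0.05 was Manf (-1.74), a secreted ER stress protein, beside 12.5% of all genes lower at that limit. The weaker channel of Manf was under its limit on replicate 3, and with it at the limit Manf had -2.37, -2.01 and 0.61.

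The comparison of MT with MB asks what differentiation does to the same genes, and it gave no called chaperone gene in 48 tested in either reading, where 0% of all genes were called by the labels and 0.477% in title order. By the labels the arrays opposed each other and 1 gene (2.08%) had an unadjusted p under 0.05, beside 1.19% of all genes. In title order there were 7 (14.6%), beside 11.5% of all genes. The medians of the chaperone genes were 0.06 by the labels and -0.09 in title order, beside 0.11 and -0.01 for all genes.

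Several ER genes had wide opposed values. Fkbp10 had 2.78 and -2.10 by the labels, and -2.78 and -2.10 in title order, where the fit was -2.44 with an adjusted p of 0.0505. Calr had 2.30 and -1.57 by the labels, and a fit of -1.93 in title order (adjusted p = 0.078). Pdia6 had 2.81 and -1.56, and -2.19 in title order. All 3 were below 0 on both arrays in title order, and on 1 array each by the labels. Fkbp10 was called in title order only when replicate 3 of G0 MB over MB was left out of the fit (adjusted p = 0.0224). Hspb8, a small heat shock protein of muscle, ran the other way, with -1.97 and 1.86 by the labels and a fit of 1.91 in title order (adjusted p = 0.149). Bag1 had -1.32 and 1.51, and 1.42 in title order. For 3 of the 7 CCT subunits the brightest clone had small values in both readings. Cct5 had -0.01 and 0.00, Cct4 had 0.14 and -0.06, and Tcp1 had 0.13 and -0.37. Another clone of Cct5 had 1.10 and -0.28 by the labels. Cct3 had 1.09 and -0.90, and Cct7 had -0.40 and -1.22, which lay below 0 on both arrays by the labels. Cct2, the beta subunit, had 0.43 and -1.55 by the labels, and a fit of -0.99 in title order (unadjusted p = 0.0398, adjusted p = 0.375). Cct8 had 0.55 and -0.56 by the labels, and -0.55 in title order. In title order Cct2 and Cct3 were the 2 of the 7 past 1.6-fold, both lower in MT, and neither was called. Hsp90ab1 had 0.42 and -0.28, and Hsp90aa1 had -0.17 and 0.29. Dnajb4, the only gene under the unadjusted limit by the labels, had 1.72 and 0.87, and a fit of -0.42 in title order.

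**Figure D4:**
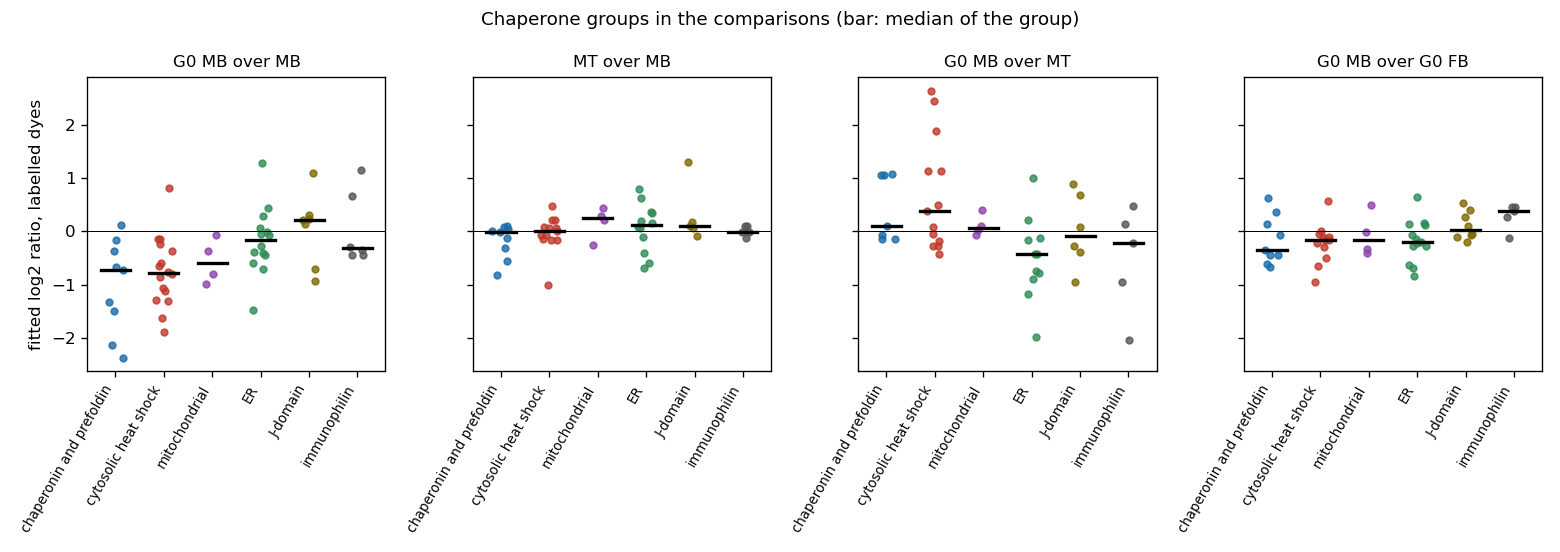
Fitted log2 ratio, read by the labelled dyes, for the chaperone genes tested in each comparison; points are genes by role and bars are group medians. The chaperonin and cytosolic medians lie at -0.72 and -0.77 in G0 MB over MB and between -0.35 and 0.39 in the other comparisons. Signs in those depend on the reading, and turn in title order wherever G0 MB are set against MT or G0 FB. Title order is the reading that puts Mylpf and Tpm2 higher in MT.

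The comparison of G0 MB with MT sets reversible against terminal arrest. Its arrays correlated with each other at only r = 0.02 over all clones. Of 46 chaperone genes tested none was called in either reading, where 0.0714% of all genes were by the labels and 0.393% in title order. With an unadjusted p below 0.05 there were 5 (10.9%) by the labels, beside 8.46% of all genes. Title order gave 6, beside 10.9% of all genes. The median was -0.06 by the labels and 0.06 in title order.

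Hspb1 was the most even of these genes. It had 1.83 and 1.95 by the labels, a fit of 1.89 ± 0.43 (adjusted p = 0.263), and -1.83 and -1.95 in title order (adjusted p = 0.112). Bag1 had 3.56 and 1.72 by the labels (fit 2.64 ± 0.72) and the same sizes with the opposite sign in title order. Hspa4 had 4.72 and 0.15, so that its mean rests on 1 array. In title order without replicate 2, Bag1 at -3.56 and Hspa4 at -4.72 were called on the array that remained. Hsp90b1 had -2.55 and -1.38 by the labels, with the dimmer channel under its limit on both arrays, so it was at least 2.12-fold lower in G0 MB than in MT by the labels, and at least as much higher in title order (adjusted p = 0.411 and 0.239). Calr had -1.74 and -0.60, Ppib -1.17 and -0.36 and Pdia3 -1.32 and -0.19 by the labels. Of the 11 ER genes tested, 9 lay below 0 by the labels (81.8%, beside 58.5% of all genes), and 2 in title order (18.2%, beside 41.5%). Cct3, Cct4 and Cct7 had 1.15 and 1.00, 1.10 and 1.02, and 0.37 and 1.73 by the labels. The brightest clones of Cct5, Cct8 and Tcp1 were within 0.33 of 0 on both arrays in either reading. By the labels the other clone of Tcp1 had 1.02 and 1.44, and the other clones of Cct5 had fits of 0.69 and 0.90. Hsp90ab1 had 0.09 and 0.91 by the labels. The mitochondrial Hspd1 had -0.02 and 0.08, and Hspa9 had -0.11 and -0.04.

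The comparison of G0 MB with G0 FB asks whether arrested cells of different lineages differ. Of 51 chaperone genes tested none was called, where 0.0300% of all genes were by the labels and 0.0300% in title order. No chaperone gene had an unadjusted p under 0.05 in either reading, beside 3.54% of all genes by the labels and 5.46% in title order. The fitted values ran between -0.94 and 0.65 by the labels, with a median of -0.10. Hsp90ab1 had -0.02 and -0.05, Cdc37 had -0.09 and 0.09 and Stip1 had -0.20 and -0.15. Hspb8 was farthest from 0, at -1.0 and -0.88 by the labels (fit -0.94 ± 0.83) and 0.94 in title order. Ppic had -0.67 and -0.68, and Dnajb11, a BiP co-factor, had 0.51 and 0.80. Cct3 had -0.97 and -0.36, and Cct4 had 0.38 and 0.87, so the CCT subunits lay on both sides of 0. Hspb1 was above the limit only on replicate 2, with -5.68 by the labels and 5.68 in title order and its weaker channel under the limit. It was called only when replicate 1 was left out (adjusted p = 0.0299 by the labels and 0.00996 in title order), on that 1 array.

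Across the comparisons, Hsp90ab1 had fitted log2 ratios of -1.62 in G0 MB over MB, 0.07 in MT over MB, 0.50 in G0 MB over MT and -0.04 in G0 MB over G0 FB by the labels. Cct3 had -2.37, 0.10, 1.07 and -0.67 in the same order, and Hspb1 had -1.31, -0.17 and 1.89 in the first 3. In title order the last 3 values of Hsp90ab1 were -0.35, -0.50 and 0.04, and those of Cct3 were -1.0, -1.07 and 0.67. The comparisons share the states MB, MT and G0 MB, though no array, and no difference between them was tested.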

How the data were processed

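Expression was measured on 9 two-colour spotted cDNA arrays of 31200 spots, on layouts of 15247 and 15294 clones. The authors extracted Cy3 and Cy5 intensities with ArrayVision, subtracted the background and applied LOWESS, and spots without a ratio were deposited as 0 in both channels. A ratio and its log2 were deposited beside them, with Cy5 on top on some arrays and Cy3 on others, so ratios were computed from the intensities. In the deposited value table, also log2, the columns of the 2 MT over MB arrays are exchanged. The column of replicate 1 of G0 MB over MB has the opposite sign to the log2 deposited with that array, so that the columns of all 3 arrays run as their labels do. Tool versions are not given in the sources used here.

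No further background correction or loess was applied, since the intensities had both. Control spots and spots with both channels under the limit were left out, duplicate spots (r between 0.85 and 0.935) were averaged, and ratios were turned by the labelled dyes. Limma 3.58.1 (R 4.3.3; lmFit, eBayes, 3.52 prior degrees of freedom) fitted 1 coefficient per comparison to all 9 arrays. The methods name SAM, which was not run, and its limits were kept (adjusted p under 0.04, 1.6-fold). To be tested, a clone needed 2 arrays with a value and 2 residual degrees of freedom. Benjamini-Hochberg adjustment ran over all clones tested in a comparison. The script was tested on simulated data. No arrays were paired by number. Genes named were the called ones, a list of main chaperones, and the 2 of smallest p in each group; Bag2 and Dnajc24 were added after their values were seen, as were other genes named for an unadjusted p, a promoter element or a single array. The members and lists were chosen with earlier results of these data known. Alternatives were the reading of the dyes, separate fits, centring, scaling, repeated loess (span 0.3), detection filters, the mean over clones, the value table, a replicate block, a dye term and each array left out. Tables and figures were made with Python 3.11.15, pandas 2.3.3, numpy 2.4.6 and matplotlib 3.10.9. A gene of the co-chaperone list is not reported here. The number of arrays limits the precision.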

Additional observations from a re-analysis of the deposited data

How the results depend on the processing

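In G0 MB over MB by the labels, 9 chaperone genes were called without replicate 3, beside 257 of all genes. With both channels above the limit there were 6, beside 139 of all genes. With the other array of MT over MB turned there were 2, beside 109, a setting chosen after seeing the data. No other setting by the labels called any, so leaving out 1 array gave between 0 and 9. With the other arrays in title order 2 were called. That count ran between 0 and 13 when arrays were left out, the 13 without replicate 3, where 511 of all genes were called. It was 0 when the comparison was fitted alone, where 47 of all genes were called. Both were chosen after seeing the data. The median of -0.39 stayed below 0 throughout, between -0.80 and -0.27 without an array and between -0.45 and -0.23 otherwise. In MT over MB the median of 0.06 was -0.09 in title order, -0.09 in the value table and -0.14 with a dye term, and ran between -0.15 and 0.10 without an array; in title order between 0 and 1 gene was called without an array. In G0 MB over MT the median of -0.06 was 0.06 in title order, 0.06 with median centring, -0.01 with loess repeated, 0.04 in the value table and 0.19 as the mean over clones, and between -0.06 and 0.00 without an array (in title order between 0.00 and 0.06, with between 0 and 2 genes called). In G0 MB over G0 FB the median of -0.10 was 0.10 in title order and 0.13 in the value table, and ran between -0.20 and -0.10 without an array (in title order between 0.10 and 0.20), with between 0 and 1 gene called in either reading. For these medians the cause was not tested beyond the sign that the reading sets. With the replicate number as a block, no chaperone gene was called in any comparison (0 of the tested), and the medians were -0.42, 0.06, -0.06 and -0.10. Deviations of arrays that share a number from the mean of their comparison correlated at r between -0.429 and 0.051. With 2 arrays in a comparison these deviations mirror each other, and their sign turns with the reading. These r therefore cannot show whether the numbers pair arrays. Dim spots limit the sizes, since 22 of the 56 genes tested in G0 MB over MB had a channel under its limit on some array.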
